A study of Mus musculus with 14 samples.

Results

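Neurons limit their own MAP kinase signalling with a set of genes, several of which the same signalling can switch on. Described here are 10 genes of the set, namely Dusp1, Dusp3, Dusp4, Dusp5, Dusp6, Dusp7, Dusp8, Errfi1, Spry2 and Spred1. They were taken by symbol from a deposited expression table of 45802 features, and all 10 were among the 10877 genes that passed a filter on low values and were tested. Ribosome-depleted total RNA was sequenced from primary cortical neuron cultures of wild-type C57BL/6 mice at 12 days in vitro, after 1 h of treatment. The 14 libraries formed 5 groups. The control group received 1% DMSO (2 libraries). The other groups had 3 libraries each. The bicuculline group received 20 µM of this GABA-A receptor blocker, which raises network activity. The NMP peptides group received purified peptides made by the neuronal membrane proteasome, a proteasome at the neuronal plasma membrane, at 4% by volume. The PK-cleaved NMP peptides group received the same volume of such peptides after cleavage with proteinase K. The fifth group, NMP peptides plus APV (here the APV group), received both the peptides and APV, which blocks NMDA receptors, at 100 µM. A DMSO content is given for the control group alone, and a group with APV but no peptides was not analysed here. Whether replicates were separate cultures or litters is not given, and the p-values rest on the scatter among the libraries, which may be technical.

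MAP kinases such as ERK, JNK and p38 are switched on by phosphorylation of a threonine and a tyrosine in their activation loop. Dual-specificity phosphatases (DUSPs) remove both phosphates. Some of them sit in the nucleus and others in the cytoplasm, and they differ in which kinase they prefer. Errfi1, Spry2 and Spred1 act further upstream, on receptor tyrosine kinases or on Ras. In neurons, synaptic activity and calcium entry through NMDA receptors activate ERK, and several of these inhibitors are themselves immediate-early or delayed early genes.

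The cultures held neurons and glia. Marker genes of neurons, astrocytes and the oligodendrocyte lineage were present in every group, while the 6 microglia and 5 endothelial and mural markers all fell below the filter. Of the 7 oligodendrocyte lineage markers, Mog fell below it too. Summed linear signals of 8 astrocyte markers ran from 307.4 to 335.5 in the APV group and from 259.7 to 306.8 in the other 4 groups. Those of 6 inhibitory neuron markers were 112.5 to 123.4 with APV and 129.4 to 145.4 elsewhere. The part of these marker differences in the comparisons that use the APV group was not tested. Fewer cells of a type and less RNA per cell cannot be told apart in such bulk samples. Gfap, an astrocyte intermediate filament gene, was highest in 4 libraries, at 3.97 to 4.18 log2 units. These were DMSO replicate 2, bicuculline replicate 2, NMP peptides replicate 3 and PK-cleaved NMP peptides replicate 3. The other 10 libraries lay at 2.15 to 3.47. Of these 10, bicuculline replicate 3 read 3.47 and the next 2.87, a wider gap, so the cut at 4 libraries was a choice. Gfap need not stand for astrocyte markers as a whole. With DMSO it read 4.13 and 2.68, while the sums of the 8 astrocyte markers were 293.4 to 295.7. A linear sum rests mostly on markers of high level, such as Slc1a3 at 7.11 to 7.57 log2 units. It therefore cannot show whether the other markers follow Gfap. Whether the 4 libraries held more astrocyte RNA was not tested. Results were also computed without the 4 libraries highest in Gfap.

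Bicuculline raised 4 of the 10 genes over DMSO (Dusp1, Dusp5, Dusp6 and Errfi1), where 0.469% of all tested genes were higher and 0 were lower. Against PK-cleaved NMP peptides, a control with 3 libraries that shares none with DMSO, it raised the same 4, against 0.533% of all genes. Against the APV group it raised 6, the 4 above with Dusp4 and Spry2, against 2.38% of all genes (3.33% in either direction, 0.947% lower). Over NMP peptides alone it raised Dusp1 and Errfi1, against 0.175% of all genes. The median log2 difference of the 10 genes was 0.61 against DMSO (-0.034 over all tested genes) and 0.52 against PK-cleaved peptides (0.0059 over all tested genes). These comparisons share the bicuculline libraries.

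Intact NMP peptides were compared with 3 groups. Of the 10 genes, 0 passed the limma test against DMSO (0.0184% of all genes were called) and, with libraries unpaired, 0 against PK-cleaved peptides (0.0827%). In the latter comparison, where same-numbered libraries correlated, 1 passed with the planned replicate block over all groups (Dusp1) and 2 with a block over these 2 groups, added after seeing the data (Dusp1 and Dusp6). At an unadjusted p under 0.05 there were 3 and 4 genes, out of 220 and 179 over all tested genes. Against the APV group, 2 were higher (Dusp1 and Dusp4), where 0.883% of all genes were higher and 0.552% lower (1.43% in all). PK-cleaved peptides against DMSO gave 0 called genes of 10 (0% of all genes) and 0 at an unadjusted p under 0.05, out of 114 over all genes. The APV group gave 0 against DMSO (0.625% of all genes, with 0.175% higher and 0.45% lower), with 2 of the 10 at an unadjusted p under 0.05, out of 1251. Against PK-cleaved peptides this group had 1 gene lower (Dusp7), where 0.781% of all genes were lower and 0.607% higher (1.39% in all). A limma F-test over all 5 groups called 5 of the 10 (Dusp1, Dusp4, Dusp5, Dusp6 and Errfi1), against 1.65% of all tested genes.

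Overlap of single libraries was counted too, in either direction. Bicuculline libraries did not overlap those of DMSO for 8 of the 10 genes (17.8% of all tested genes), of PK-cleaved peptides for 8 (6.63%), of NMP peptides for 5 (4.7%) and of the APV group for 7 (25.6%). NMP peptide libraries did not overlap those of DMSO for 4 (17.4%), of PK-cleaved peptides for 4 (5.21%) and of the APV group for 6 (21.9%). The count was 1 for PK-cleaved peptides against DMSO (11%), 5 for the APV group against DMSO (29.8%) and 4 for the APV group against PK-cleaved peptides (20.2%). Dusp7 was counted as lower with bicuculline than with DMSO, PK-cleaved peptides and NMP peptides. It was also lower with NMP peptides than with DMSO and PK-cleaved peptides. In the APV group, Dusp4, Dusp5, Dusp7 and Errfi1 were lower than with DMSO, and Spred1 was higher. Those lower than with PK-cleaved peptides were Dusp4, Dusp7, Dusp8 and Errfi1.

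**Figure D1:**
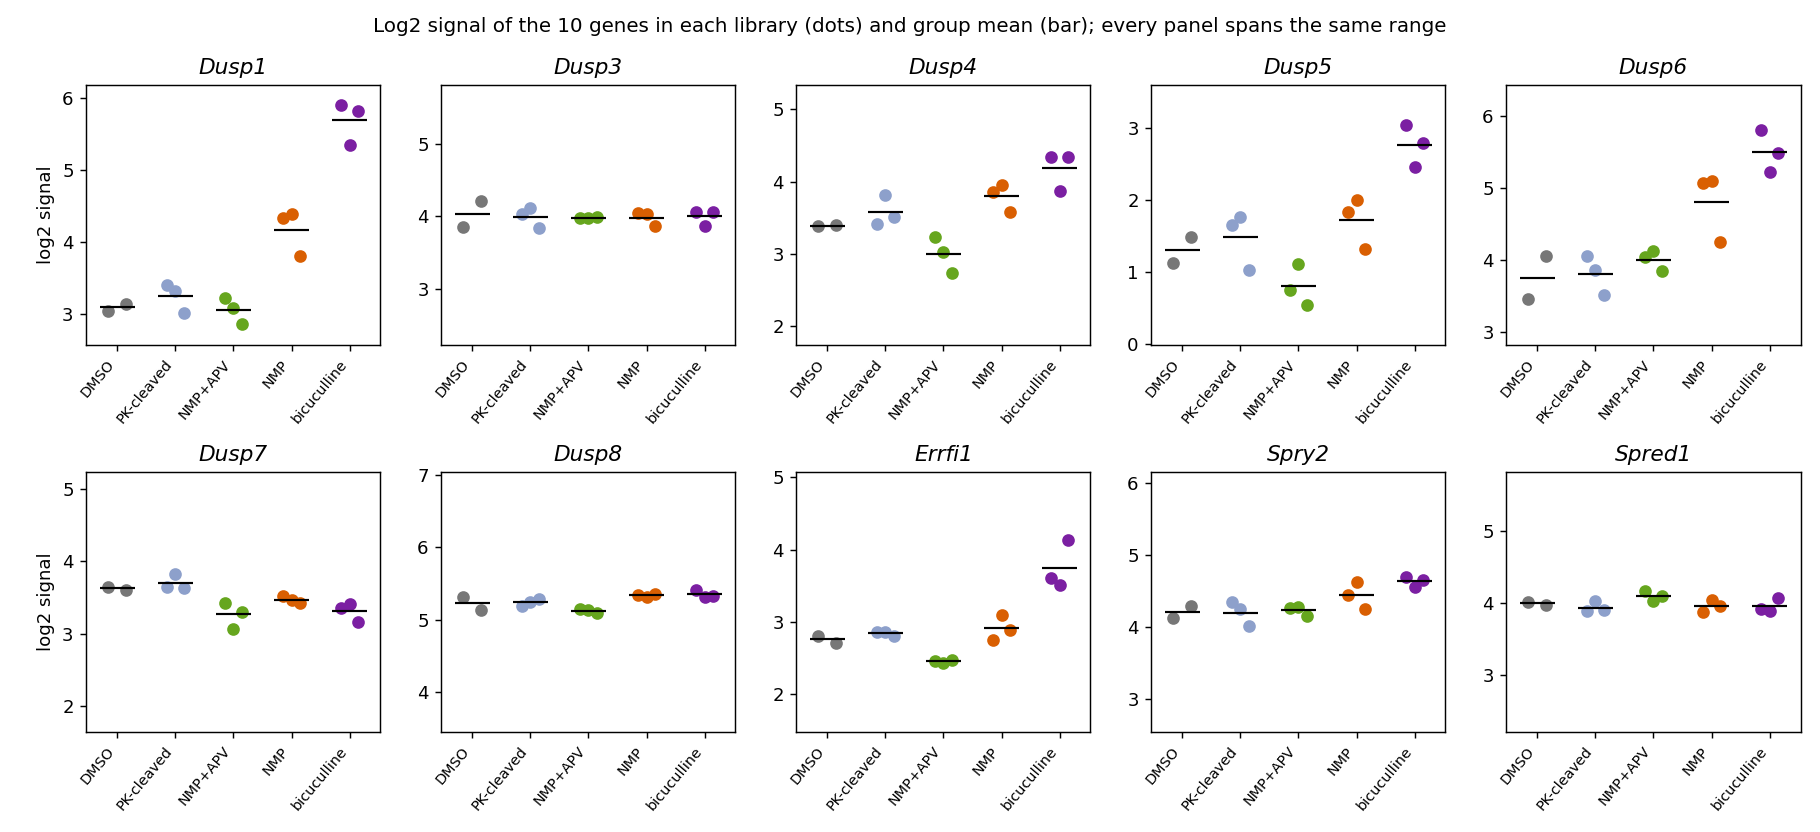
Log2 signal of each gene (vertical axis) in each library (dot), by treatment group (horizontal axis), with the group mean as a bar. PK-cleaved stands for PK-cleaved NMP peptides, NMP for NMP peptides and NMP+APV for NMP peptides plus APV. Every panel covers the same number of log2 units but is centred on its own gene, so spreads can be set side by side and heights cannot. Dusp1 had bicuculline libraries at 5.35 to 5.90 and DMSO libraries at 3.05 and 3.14. Dusp3 lay between 3.83 and 4.21 in all libraries.

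Dusp1 encodes a nuclear phosphatase that acts on p38, JNK and ERK and is a classical immediate-early gene. It lies on chromosome 17 (26505591 to 26508472, GRCm38). Its log2 signals were 5.90, 5.35 and 5.82 in the bicuculline libraries and 4.34, 4.39 and 3.80 with NMP peptides. They were 3.41, 3.32 and 3.02 with PK-cleaved peptides, 3.22, 3.09 and 2.86 in the APV group, and 3.05 and 3.14 with DMSO. All bicuculline libraries lay above all NMP peptide libraries, and these above all libraries of the other 3 groups, which overlapped one another. Bicuculline exceeded PK-cleaved peptides by 2.44 (SE 0.17) on the log2 scale, or 5.43-fold, with a limma adjusted p of 2.17e-06, and exceeded NMP peptides by 1.51 (SE 0.17, adjusted p = 0.00191).

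NMP peptides exceeded the APV group in Dusp1 by 1.12 (SE 0.17, adjusted p = 0.00513), or 2.17-fold, a call kept under all 14 alternatives. The difference from PK-cleaved peptides was 0.93 (SE 0.17, 95% interval 0.57 to 1.29), which missed the threshold in the limma fit without pairing (adjusted p = 0.0851). Libraries with the same number in these 2 groups had correlated deviations, and Dusp1 passed with the planned replicate block over all groups (adjusted p = 0.0471) and with the block over these 2 alone (SE 0.13, adjusted p = 0.0141). It also passed without NMP peptides replicate 3 (1.11, adjusted p = 0.0136) and without the 4 libraries high in Gfap (log2 difference 0.998, adjusted p = 0.00891). The last fit lacks replicate 3 of both groups, the lowest library of each for Dusp1. Against DMSO the difference was 1.08 (SE 0.19, adjusted p = 0.0641), and 1.22 without the 4 libraries (adjusted p = 0.012), a fit that keeps 1 DMSO library. PK-cleaved peptides and DMSO differed by 0.15 (95% interval -0.25 to 0.56), and the APV group and DMSO by -0.04 (-0.45 to 0.36).

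Dusp5 encodes a nuclear phosphatase selective for ERK (chromosome 19, 53529145 to 53541809). Its level was the lowest of the 10, with a mean of 1.64 log2 units over all libraries, above 16.8% of tested genes. The bicuculline libraries read 3.04, 2.46 and 2.80, the NMP peptide libraries 1.83, 1.99 and 1.32 and the PK-cleaved libraries 1.65, 1.77 and 1.03. DMSO read 1.13 and 1.48, and the APV group 0.75, 1.11 and 0.55. Only the bicuculline libraries stood clear of every other library of the 14. The rise with bicuculline was 1.46 (SE 0.25, adjusted p = 0.0124) over DMSO and 1.28 (SE 0.23, adjusted p = 0.0128) over PK-cleaved peptides.

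These Dusp5 calls were lost in some runs that left out 1 library. In those runs the log2 difference was 1.283 to 1.635 over DMSO and 1.054 to 1.265 over PK-cleaved peptides. Against DMSO the adjusted p was 0.0679 without bicuculline replicate 1, 0.053 without bicuculline replicate 3, 0.242 without DMSO replicate 2 and 0.0647 without DMSO replicate 3. Against PK-cleaved peptides it was 0.0813 and 0.0691 without bicuculline replicates 1 and 3, and 0.0751 without PK-cleaved replicate 3. For NMP peptides the Dusp5 difference from PK-cleaved peptides was 0.23 (95% interval -0.25 to 0.72). From the APV group it was 0.91 (SE 0.23, adjusted p = 0.0664), with no overlap between the libraries. Without the 4 libraries high in Gfap, that Dusp5 difference was 1.11 and passed (adjusted p = 0.0133). Of the 4, this comparison holds 1, NMP peptides replicate 3, which was the lowest of its group for Dusp5. The APV group was lowest, 0.68 below PK-cleaved peptides (SE 0.23, adjusted p = 0.169) and 0.50 below DMSO (SE 0.25, adjusted p = 0.468). Without the 4 libraries the first of these was -0.904 with an adjusted p of 0.0464. That fit lacks PK-cleaved replicate 3, the lowest of its group for Dusp5.

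Dusp4, another nuclear phosphatase of the family (chromosome 8, 34807610 to 34819894), had a graded order of group means. These were 4.18 ± 0.27 (SD, n = 3) with bicuculline, 3.79 ± 0.19 with NMP peptides, 3.58 ± 0.21 with PK-cleaved peptides, 3.39 ± 0.01 (n = 2) with DMSO and 3.00 ± 0.25 in the APV group. The libraries read 4.34, 3.87 and 4.33 with bicuculline and 3.85, 3.95 and 3.58 with NMP peptides. They read 3.41, 3.81 and 3.51 with PK-cleaved peptides, 3.38 and 3.40 with DMSO and 3.23, 3.03 and 2.74 in the APV group. No 2 neighbouring groups in that order differed by the limma test. The ends did, with bicuculline 1.18 above the APV group (SE 0.15, adjusted p = 0.000413). NMP peptides were 0.79 above the APV group (SE 0.15, adjusted p = 0.0183), or 1.73-fold, with all libraries apart.

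That Dusp4 call was lost without NMP peptides replicate 1 (adjusted p = 0.0776) or replicate 2 (0.0744), and without APV replicate 2 (0.0569) or replicate 3 (0.0982). Bicuculline over DMSO was 0.79 (SE 0.17, adjusted p = 0.0743), and NMP peptides over PK-cleaved peptides 0.22 (95% interval -0.11 to 0.55).

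Dusp6 encodes a cytoplasmic phosphatase selective for ERK, widely read as a gauge of ERK activity (chromosome 10, 99263231 to 99267489). Its log2 signals were 5.80, 5.22 and 5.48 with bicuculline, 5.07, 5.10 and 4.25 with NMP peptides and 4.04, 4.13 and 3.84 in the APV group. They were 4.05, 3.86 and 3.52 with PK-cleaved peptides and 3.46 and 4.06 with DMSO. Bicuculline libraries lay above all others, and NMP peptide libraries above the 3 remaining groups, although replicate 3 was 0.83 below the mean of the other NMP peptide libraries. Bicuculline exceeded PK-cleaved peptides by 1.69 (SE 0.22, adjusted p = 0.000901), or 3.23-fold, and DMSO by 1.74 (SE 0.25, adjusted p = 0.00232). The DMSO call was lost without DMSO replicate 2 (difference 1.44, adjusted p = 0.071).

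For NMP peptides the Dusp6 difference was 0.995 from PK-cleaved peptides (SE 0.22, adjusted p = 0.442), a 1.99-fold difference. It did not pass with the planned replicate block over all groups (adjusted p = 0.313). It passed with the block over these 2 groups that was added after seeing the data (SE 0.16, adjusted p = 0.0473). Without the 4 libraries high in Gfap it was 1.13 (adjusted p = 0.00853). That fit lacks replicate 3 of both groups, the lowest library of each for Dusp6. From the APV group the Dusp6 difference was 0.80 (SE 0.22, adjusted p = 0.105), and 1.08 without the 4 libraries (adjusted p = 0.00202). Without NMP peptides replicate 3 alone the differences from PK-cleaved peptides and from the APV group were 1.27 (adjusted p = 0.0165) and 1.08 (adjusted p = 0.0209). Bicuculline and NMP peptides differed in Dusp6 by 0.69 (95% interval 0.22 to 1.17, adjusted p = 0.976). The corresponding difference in Dusp1 was 1.51, so that the 2 genes had similar values with NMP peptides against PK-cleaved peptides (0.93 and 0.995) and unlike values with bicuculline against NMP peptides. A test of Dusp1 against Dusp6 was not made.

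Dusp7, the other cytoplasmic ERK phosphatase of the set (chromosome 9, 106368560 to 106375724), had its highest group means with PK-cleaved peptides and DMSO. Its libraries read 3.64, 3.82 and 3.63 with PK-cleaved peptides, 3.65 and 3.60 with DMSO, 3.52, 3.47 and 3.42 with NMP peptides, 3.36, 3.41 and 3.16 with bicuculline and 3.43, 3.07 and 3.30 in the APV group. All libraries of the 3 last-named groups lay below all those of the first 2. The fall in the APV group against PK-cleaved peptides was the call for this gene (log2 difference -0.43, SE 0.10, adjusted p = 0.0434). It was lost in 10 of 14 alternatives, with adjusted p from 0.0323 to 0.156 over all of them. It was lost without any 1 of the 3 PK-cleaved libraries (adjusted p = 0.0978, 0.0986 and 0.0845 without replicates 1, 2 and 3). The differences were then -0.46, -0.37 and -0.47. Without APV replicates 2 and 3 in turn it was lost too (0.156 and 0.111), with differences of -0.33 and -0.45. Bicuculline against PK-cleaved peptides gave -0.39 (SE 0.10, adjusted p = 0.158).

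Dusp8, a phosphatase of JNK and p38, and Dusp3, a small atypical phosphatase of ERK and JNK, were not called in any of the 10 comparisons. Dusp8 (chromosome 7, 142079487 to 142095907) had the highest level of the 10 genes on a per-length scale, with a mean of 5.26 log2 units over all libraries, above 85.1% of tested genes. Its libraries ran from 5.09 to 5.40. All NMP peptide and bicuculline libraries were at 5.31 or higher and all libraries of the APV group at 5.15 or lower. The DMSO libraries, at 5.32 and 5.13, fell in both of these ranges, and the PK-cleaved libraries lay at 5.18 to 5.28. The difference between bicuculline and the APV group was 0.22 (95% interval 0.09 to 0.36, adjusted p = 0.0651). Dusp3 (chromosome 11, 101971141 to 101987013) had group means between 3.98 and 4.03. Its largest difference between 2 groups was 0.05, and the 95% interval of bicuculline against PK-cleaved peptides ran from -0.21 to 0.22.

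Errfi1 encodes a cytoplasmic inhibitor that binds the kinase domain of the EGF receptor (chromosome 4, 150853796 to 150868889). The bicuculline libraries read 3.61, 3.51 and 4.13, above all other libraries. NMP peptides read 2.75, 3.09 and 2.89, PK-cleaved peptides 2.86, 2.86 and 2.80, DMSO 2.80 and 2.71, and the APV group 2.46, 2.43 and 2.46. Errfi1 rose 1.88-fold with bicuculline over PK-cleaved peptides (log2 difference 0.91, SE 0.13, adjusted p = 0.00202) and 1.99-fold over DMSO (0.99, SE 0.15, adjusted p = 0.00273). The DMSO call was lost without DMSO replicate 3 (adjusted p = 0.0711) and with only these groups fitted (0.146).

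Between intact and cleaved peptides Errfi1 differed by 0.07 (95% interval -0.21 to 0.35). Bicuculline exceeded NMP peptides by 0.84 (SE 0.13, adjusted p = 0.0166), a call lost without bicuculline replicate 1 (0.0502), without NMP peptides replicate 1 (0.102) or 3 (0.0945), without the 4 libraries high in Gfap (0.0619) and with only these groups fitted (0.257). The 3 libraries with APV lay below the other 11. The difference between the APV group and PK-cleaved peptides was -0.39 (SE 0.13, adjusted p = 0.174), and that from DMSO was -0.30 (SE 0.15, adjusted p = 0.446).

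Spry2 encodes a sprouty protein that restrains signalling from receptor tyrosine kinases to ERK (chromosome 14, 105891947 to 105896819). Its libraries read 4.70, 4.56 and 4.66 with bicuculline, 4.45, 4.62 and 4.25 with NMP peptides, 4.26, 4.28 and 4.15 in the APV group, 4.13 and 4.29 with DMSO and 4.35, 4.25 and 4.01 with PK-cleaved peptides. Bicuculline overlapped NMP peptides, replicate 2 of which reached its range, and stood above the 3 other groups. The difference between bicuculline and the APV group was 0.41 (SE 0.10, adjusted p = 0.0453), or 1.33-fold. That call was lost without any 1 of the 6 libraries compared (adjusted p = 0.0664 to 0.168) as well as with median centring (0.0664), the replicate block (0.0549) and no variance trend (0.0588). Bicuculline against PK-cleaved peptides gave a like value of 0.43 (SE 0.10, adjusted p = 0.124).

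Spred1 encodes a membrane protein that brings neurofibromin to Ras (chromosome 2, 117121071 to 117182279). Its libraries ran from 3.88 to 4.16, and it was called in 0 of the 10 comparisons. The highest group was the APV group (4.09 ± 0.07, SD, n = 3) and the lowest PK-cleaved peptides (3.93 ± 0.08), with a difference of 0.16 (95% interval -0.0017 to 0.32, adjusted p = 0.325). For bicuculline against PK-cleaved peptides the interval was -0.13 to 0.18.

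**Figure D2:**
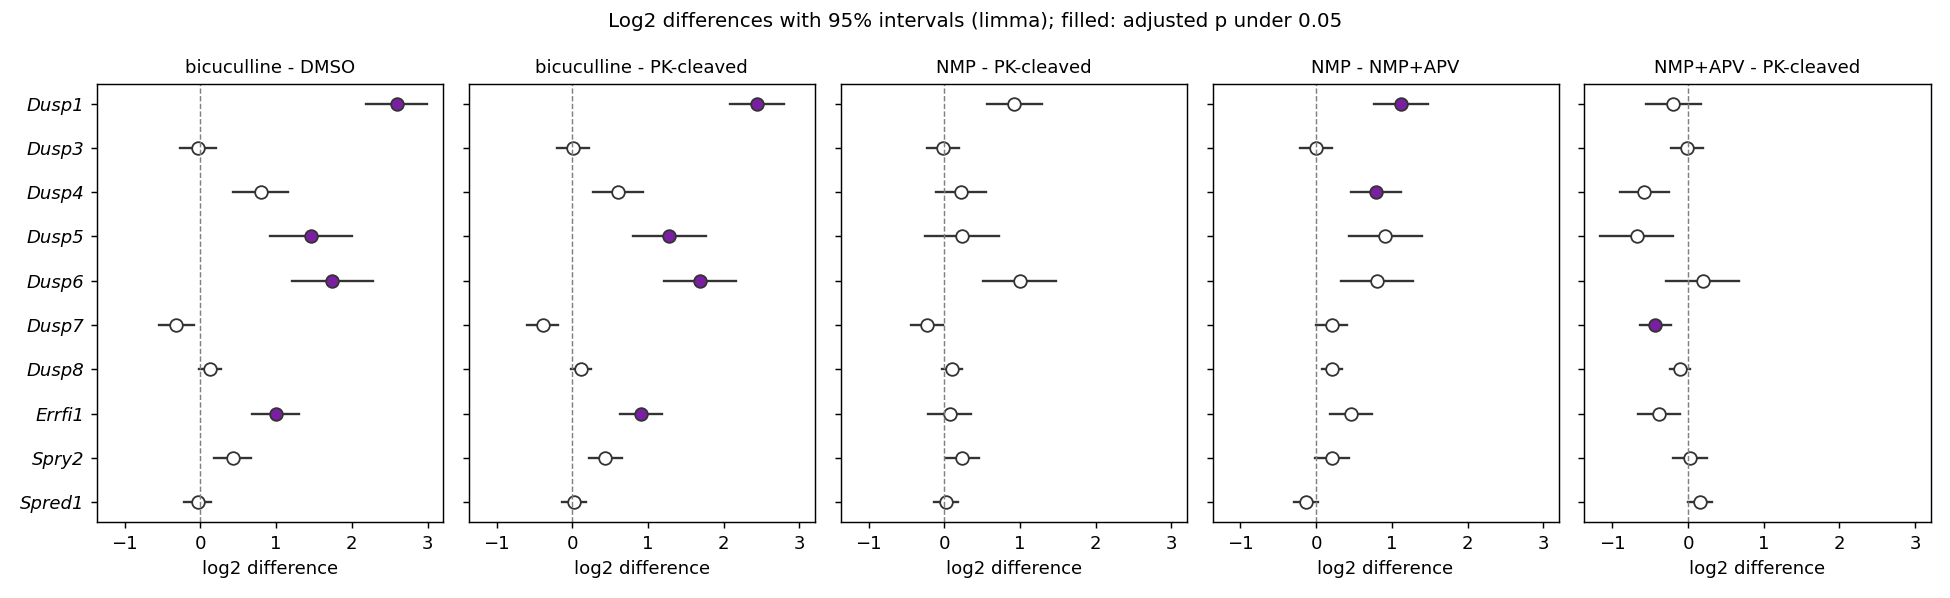
Log2 differences (horizontal axis) of the 10 genes (rows) in 5 comparisons, with 95% intervals from limma, not adjusted over genes, and filled circles where the adjusted p was under 0.05. NMP stands for NMP peptides, NMP+APV for NMP peptides plus APV and PK-cleaved for PK-cleaved NMP peptides. Bicuculline has the same 4 filled circles against both controls, NMP against PK-cleaved has 0, and Dusp7 is the filled circle left of 0.

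The starts of the genes were set beside these responses, because several of the genes moved together. Sequences of the 250 bases before an annotated start, not always the outermost, were taken from RefSeq (GRCm38.p6). They were matched by symbol for 9 of the 10 genes, with 10 starts in all. Dusp4 had no entry. Both strands were searched for the full cyclic AMP response element TGACGTCA (CRE), its 5-base core TGACG, which the full element holds on both strands, the CArG box bound by serum response factor, the AP-1 site TGANTCA, the EGR site GCGNGGGCG and the ETS site CCGGAAGT. Shown are the 4 genes raised by bicuculline over DMSO (for Errfi1 the second of 2 starts) and Dusp8, which was not called, with matches in capitals.
Dusp1 (chr17:26508473-26508722, minus strand): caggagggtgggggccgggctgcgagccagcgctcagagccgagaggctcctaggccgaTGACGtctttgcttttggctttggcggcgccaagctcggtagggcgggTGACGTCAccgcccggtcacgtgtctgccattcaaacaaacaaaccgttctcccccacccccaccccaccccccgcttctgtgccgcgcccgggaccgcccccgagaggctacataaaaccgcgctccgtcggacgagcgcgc
Dusp5 (chr19:53528895-53529144, plus strand): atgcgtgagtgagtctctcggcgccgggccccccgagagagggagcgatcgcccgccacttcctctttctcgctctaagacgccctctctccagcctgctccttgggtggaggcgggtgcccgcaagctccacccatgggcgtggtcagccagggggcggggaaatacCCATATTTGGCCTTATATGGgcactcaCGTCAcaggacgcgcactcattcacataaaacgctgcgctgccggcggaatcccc
Errfi1 (chr4:150854820-150855069, plus strand): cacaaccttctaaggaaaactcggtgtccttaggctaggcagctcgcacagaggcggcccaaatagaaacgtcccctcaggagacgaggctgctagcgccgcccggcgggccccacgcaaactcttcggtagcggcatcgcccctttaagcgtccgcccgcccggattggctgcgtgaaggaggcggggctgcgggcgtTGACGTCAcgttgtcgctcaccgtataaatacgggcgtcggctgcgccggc
Dusp6 (chr10:99262981-99263230, plus strand): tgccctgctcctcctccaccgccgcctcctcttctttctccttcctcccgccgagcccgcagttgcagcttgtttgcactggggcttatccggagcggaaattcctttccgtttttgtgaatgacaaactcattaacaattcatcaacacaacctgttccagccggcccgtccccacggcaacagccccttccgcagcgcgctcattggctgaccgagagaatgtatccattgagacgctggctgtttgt
Dusp8 (chr7:142095285-142095534, minus strand): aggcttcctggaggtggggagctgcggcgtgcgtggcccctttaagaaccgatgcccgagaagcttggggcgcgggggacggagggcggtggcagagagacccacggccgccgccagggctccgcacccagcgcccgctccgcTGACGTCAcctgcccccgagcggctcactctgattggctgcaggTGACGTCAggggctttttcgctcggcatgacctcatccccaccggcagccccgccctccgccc

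Dusp1 held 1 full CRE, 143 to 136 bases before the start, and a further core at 191 to 187. Errfi1 held a full CRE at 51 to 44 bases before its second start and no match at its first. Dusp5 held 2 adjoining CArG boxes, at 82 to 73 and 72 to 63, and a CRE core at 55 to 51. Dusp6 had no match to the 6 motifs in this window. Dusp8 held 2 full CREs, at 107 to 100 and 63 to 56 before a start that lay inside the gene span given above. The bases before the outer end of Dusp8 were not searched. Its log2 difference between bicuculline and PK-cleaved peptides was 0.11 (95% interval -0.02 to 0.24). Dusp3, Dusp7, Spry2 and Spred1 had no match. The Dusp3 window also lay inside the gene span, and the Dusp7 window lay partly inside it. Over all 32851 RefSeq starts, 1.55% held the full CRE, 17.8% the core, 1.47% the CArG box, 6.75% the AP-1 site, 4.7% the EGR site and 2.88% the ETS site in the same window. A match is a description of letters and not of binding.

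Within groups, several of the genes varied more than most. The SD within groups, pooled over the 5 groups, was 0.33 for Dusp6, 0.33 for Dusp5, 0.25 for Dusp1 and 0.22 for Dusp4, against a median of 0.13 over all tested genes, and 0.06 for Dusp8. In each of the 4 groups with a library high in Gfap, that library was the lowest of its group for Dusp1, Dusp3, Dusp5, Dusp6 and Spry2, which holds for 7.39% of all tested genes. For Dusp6 it was 0.41 below the mean of the other bicuculline libraries, 0.83 below with NMP peptides, 0.60 below with DMSO and 0.44 below with PK-cleaved peptides. Dusp3, not called in any comparison, was 0.19, 0.17, 0.35 and 0.24 below in the same order. Dusp8 was the highest of its group in 3 of the 4. The part of Gfap or of glial content in these levels was not tested. Without the 4 libraries, bicuculline still raised 4 of the 10 genes over PK-cleaved peptides, with 48 called over all tested genes. Over DMSO, with 1 library left, the log2 differences of Dusp1, Dusp5, Dusp6 and Errfi1 were 2.72, 1.44, 1.58 and 1.16.

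**Figure D3:**
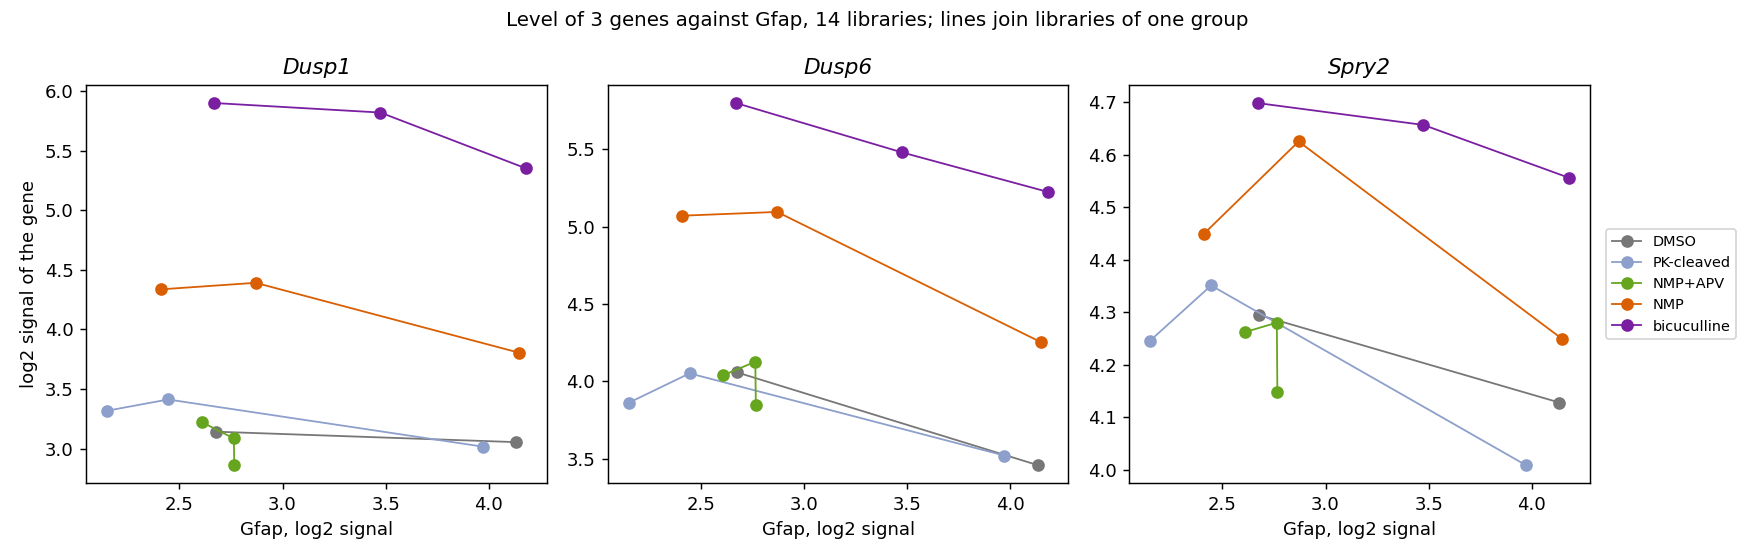
Log2 signal of Dusp1, Dusp6 and Spry2 (vertical axes, one range per panel) against that of Gfap (horizontal axis) in 14 libraries, with lines joining the libraries of a group in order of Gfap. PK-cleaved stands for PK-cleaved NMP peptides, NMP for NMP peptides and NMP+APV for NMP peptides plus APV. In the 4 groups that have a library above 3.9 in Gfap, that library is the lowest of its line in all 3 panels.

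As a description over the 14 libraries, which share treatments within groups, the log2 signals of Dusp1, Dusp5, Dusp6, Errfi1, Spry2 and Dusp4 ran together, with Pearson r between pairs from 0.76 (Errfi1 and Spry2) to 0.96 (Dusp6 and Spry2). Dusp8, not called in any comparison, had r from 0.50 (with Spry2) to 0.83 (with Dusp4) with these genes. Among 10562 other tested genes, those most like Dusp1 were Btg2 (r = 0.991), Arc (0.987) and Gadd45b (0.987). Those most like Dusp6 were Nr4a1 (0.984), Fos (0.978) and Junb (0.974), and those most like Spry2 were Ccno (0.945), Egr1 (0.938) and Nr4a1 (0.934). Dusp5 was most like Rgs2 (0.953), Rgs4 (0.947) and Gadd45g (0.943), Dusp4 most like Kcnf1 (0.927), Rgs4 (0.926) and Vgf (0.918), and Errfi1 most like Cited2 (0.975), Nr4a2 (0.961) and Tob2 (0.959). Spred1 was most like Slc1a3 (0.904), Aqp4 (0.864) and Gpm6b (0.846), the first 2 of which are among the 8 astrocyte markers. Gfap, another of the 8, was not among these. In the 4 groups with a library high in Gfap, that library was the lowest in Spred1 in 1 group and the highest in 1.

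Other genes of the pathway were followed in lists. Of 29 tested other phosphatases and inhibitors, Dusp14, an atypical dual-specificity phosphatase, was 2.07-fold higher with bicuculline than in the APV group (log2 difference 1.05, SE 0.26, adjusted p = 0.0375). Ptprr, a tyrosine phosphatase of MAP kinases, was lower in the APV group than with PK-cleaved peptides (-0.41, SE 0.09, adjusted p = 0.0451). Over all tested genes, 2.38% were higher in the first of these comparisons and 0.781% lower in the second. Of the 29 phosphatases and inhibitors, 0 were called in the other 8 comparisons. Among 22 receptors and adaptors, Met, the hepatocyte growth factor receptor gene, was the only one called. It was lower in the APV group than with DMSO (-0.58, SE 0.12, adjusted p = 0.0477), NMP peptides and bicuculline. Over all tested genes, 0.45%, 0.883% and 2.38% were lower in the APV group, in that order. Downstream, 7 of 29 kinase and transcription factor genes were higher with bicuculline than with PK-cleaved peptides and 0 were lower. Over all tested genes, 0.533% were higher and 0 lower. The 7 were Fos, Egr1, Egr2, Egr3, Ier2, Jun and Fosl2. Of the 29, 1 (Fos) was higher with NMP peptides than with PK-cleaved peptides, against 0.0827% of all tested genes. Bicuculline raised 6 of the 29 over DMSO (the 7 without Fosl2), against 0.469% of all tested genes. Against the APV group 8 were higher and 2 lower (Elk1 and Rps6ka5), against 2.38% and 0.947%. Elk1, an ETS factor that ERK phosphorylates, was 2.25-fold higher in the APV group than with PK-cleaved peptides (log2 difference 1.17, SE 0.10, adjusted p = 7.63e-05). It was the only 1 of the 29 called there, where 0.607% of all tested genes were higher and 0.781% lower. Elk1 was also called higher in the APV group than with DMSO, NMP peptides and bicuculline.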

How the data were processed

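The authors deposited 1 table of log2 signals per gene for 14 libraries, with missing values for features without signal. Reads were paired-end, per the labels' protocols, and the submitters' processing notes name GRCm38.p6 as build. For the aligner, the counter and the annotation, what was used is not given in the sources used here. Every library has the same median (2.19) and maximum (12.0), which quantile normalisation gives. Read depth is unknown, and global shifts in RNA content are not visible. Base 2 and a per-length scale were read from the values: 2 to the power of each value, times its exon length in kilobases (GENCODE), sums to 1180000 to 1270000 per library, against 295000 to 302000 without the length.

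Of 18128 features with a value, the lowest 40% by mean over all libraries were dropped, which left 10877 genes. Their log2 values were fitted with limma 3.58.1 in R 4.3.3, using 1 mean per group and moderated variances that follow a trend with level. In each of 10 comparisons the two-sided p-values were adjusted (Benjamini-Hochberg) across all tested genes. Genes under 0.05 after adjustment were called. The genes, lists and motifs were chosen with earlier results of these data known. All 10 genes are named. The genes most like each were taken by Pearson r, without predicted gene models. Positions are from RefSeq. A further list of pathway genes is not reported here.

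Pairing of libraries by replicate number was checked by correlating, over genes, how far libraries lay from their group means. The numbers were taken to pair 2 groups where 3 pairs each exceeded 0.1, which held where NMP peptides met their PK-cleaved form (0.51, 0.498 and 0.613) and for none of the other 5 comparisons with 3 pairs, as a property of the data and not of the labels. DMSO has 2 libraries, so its 4 comparisons could not meet this rule. Both of its pairs exceeded 0.1 with bicuculline (0.542 and 0.17) and with the APV group (0.305 and 0.349). The alternatives were no filter, a filter of 60%, median centring, a replicate block, array weights, no variance trend, only the compared groups, leaving out each library and leaving out the 4 libraries highest in Gfap. The replicate block over those 2 groups alone was added after seeing the data.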

Additional observations from a re-analysis of the deposited data

How the results depend on the processing

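No called value of the 10 genes changed direction in any alternative run. The 19 called values had 259 alternatives, of which 221 stayed called and 38 lost the call. Of 1111 alternatives of values that were not called, 67 had the other sign and 25 were called. Causes were not tested. In what follows, calls over all tested genes stand in brackets. Without the 4 libraries highest in Gfap, NMP peptides had 2 genes called against PK-cleaved peptides (10) and 4 against the APV group (91). Bicuculline against NMP peptides then gave 1 (23). The APV group against PK-cleaved peptides gave 1 (57), which was Dusp5 and not Dusp7. Between NMP peptides and PK-cleaved peptides the replicate block over all groups gave 1 gene (9). The replicate block over these 2 groups gave 2 (11), and that with only the compared groups gave 2 (25). For NMP peptides against the APV group, array weights gave 5, while calls over all tested genes went from 156 to 614. With only the compared groups, bicuculline against NMP peptides gave 1 (5). The APV group against PK-cleaved peptides gave 0 with no filter (131), with the replicate block (88), with only the compared groups (55) and without the variance trend (135). The replicate block moved no other count of the 10 genes by over 1.5 times. The stricter filter drops Dusp5.

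Leaving out 1 library gave 2 to 5 of the 10 genes where bicuculline was set against DMSO (30 to 55 over all tested genes, 51 with every library). NMP peptides gave 0 to 2 against DMSO (0 to 10 over all, 2 with every library) and 0 to 2 against PK-cleaved peptides (1 to 11, and 9). The range was 1 to 4 for NMP peptides against the APV group (57 to 101, and 156) and 0 to 1 for the APV group against PK-cleaved peptides (53 to 127, and 151). Bicuculline gave 1 to 2 against NMP peptides (4 to 34, and 19), 3 to 5 against PK-cleaved peptides (44 to 68, and 58) and 5 against the APV group (191 to 279, and 362). A lone DMSO library is taken to have the spread of the other groups. The alternative for linear values did not apply, since the table is on a log scale.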
